A study of Mus musculus with 8 samples.

Results

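Csf1, Csf2, Csf3 and Il34 encode secreted growth factors through which astrocytes and other tissue cells act on microglia and other myeloid cells. The 4 genes were taken by symbol from the 54146 genes listed for each library, and each symbol matched 1 gene. CSF1 (M-CSF) and interleukin-34 are different proteins that bind the same receptor, CSF1R, a receptor tyrosine kinase on which microglia and most tissue macrophages depend for survival. CSF2 (GM-CSF) signals through a ligand-binding α chain paired with a shared β chain and activates JAK2 and STAT5, and CSF3 (G-CSF) drives the production and release of neutrophils through CSF3R. Csf2 and Csf3 are known as genes that are nearly silent in resting cells and switched on by inflammatory cytokines through NF-κB and C/EBP factors, and their mRNAs carry AU-rich elements in the 3′ UTR that shorten their life.

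The mRNA was measured by RNA-seq in primary cortical astrocytes of neonatal C57BL/6 mice, in 4 groups of 2 biological replicates each (8 libraries). Mixed glia received a lentivirus with a short hairpin RNA (shRNA) directed at Gstm1, the gene of a cytosolic glutathione S-transferase (GSTM1 KD), or with a non-silencing shRNA (control KD), and were selected with puromycin, so all groups carried a vector and had seen the antibiotic. Oligodendrocyte lineage cells and microglia were shaken off, the CD11b-negative fraction was plated, and the cells were left unstimulated (the basal level) or given TNF-α at 50 ng/ml for 6 h. No rescue of Gstm1 was among the libraries, so an effect of its loss and an off-target effect of its shRNA cannot be told apart, and a flask was seeded from more than 1 brain, so a replicate is a culture rather than an animal.

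The libraries held 17349682 to 34434615 counted fragments. Gstm1 counts were 8153 and 9644 in unstimulated control KD against 676 and 626 in unstimulated GSTM1 KD, and 4851 and 6492 against 527 and 405 once TNF-α had been given. The 10 astrocyte markers summed to 3011 to 9047 CPM (counts scaled to a common library total with TMM factors), and none of them was at 3 counts or fewer throughout. The replicate 2 library of each group had the higher astrocyte sum, and at each replicate number the sum was higher in GSTM1 KD (6066 and 9047 against 3011 and 6863 CPM unstimulated, 6228 and 8865 against 3085 and 6961 CPM stimulated). The single markers went both ways. Gfap read 3119 and 5627 CPM in unstimulated GSTM1 KD against 995 and 3078 CPM in control KD. In replicate 1 Aqp4 was higher in GSTM1 KD (917 against 652 CPM unstimulated, 1358 against 899 CPM stimulated). In replicate 2 Aqp4 was lower in GSTM1 KD (1144 against 1522 CPM unstimulated, 1537 against 1987 CPM stimulated). Sox9 was lower in GSTM1 KD at each replicate number (236 and 243 against 266 and 410 CPM unstimulated, 144 and 161 against 168 and 232 CPM stimulated). In edgeR's test 0 of the 10 were called higher and 1, S100b, lower in both states, with a median log2 fold change of 0.39 and 0.28. DESeq2 also called S100b lower in both states, and called Fgfr3 higher after TNF-α. The 12 microglia and macrophage markers summed to 4.16 to 13.5 CPM and were lower in sum in GSTM1 KD at each replicate number (13.2 and 6.45 against 6.86 and 4.16 CPM unstimulated, 13.5 and 6.67 against 7.66 and 4.31 CPM stimulated), with P2ry12 at 3 counts or fewer in every library, and the 5 neutrophil and T cell markers were all at that floor. The 7 fibroblast and mural cell markers summed to 3881 and 3609 CPM in unstimulated control KD and to 2050 and 1818 CPM in unstimulated GSTM1 KD, and to 3002 and 3201 against 1810 and 1621 CPM in the stimulated cells. The 7 oligodendrocyte lineage markers were also lower in sum in GSTM1 KD, at 144 and 154 against 174 and 223 CPM unstimulated and 148 and 170 against 175 and 223 CPM stimulated. The part of these differences in the results that follow was not tested. In bulk RNA fewer cells of a type and less RNA per cell cannot be told apart.

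The sequences that follow show how differently the 4 genes are built where inflammatory signals are known to act on their mRNAs. Csf1 (ENSMUSG00000014599.10) lies at chr3:107741048-107760469 on the minus strand of GRCm38, Csf2 (ENSMUSG00000018916.5) at chr11:54247271-54249667 on the minus strand, Csf3 (ENSMUSG00000038067.2) at chr11:98701263-98703629 on the plus strand and Il34 (ENSMUSG00000031750.15) at chr8:110741829-110805924 on the minus strand. ATTTA, the core of the AU-rich element, was counted on the mRNA strand of the longest annotated 3′ UTR of each gene. The Csf2 3′ UTR held 9 copies in 317 bases, the Csf3 3′ UTR 6 in 669 bases, the Csf1 3′ UTR 4 in 2111 bases and the Il34 3′ UTR 1 in 605 bases. The 30-base window with the most copies is printed below for the 3 genes with more than 1 copy, with ATTTA in capitals.
Csf2 chr11:54247320-54247349 minus strand: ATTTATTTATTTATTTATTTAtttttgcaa
Csf3 chr11:98702992-98703021 plus strand: ATTTAtctctATTTAatATTTAtgcatatt
Csf1 chr3:107741096-107741125 minus strand: ATTTAaatatctATTTAaaaaataggaagc
The Csf2 window held 5 overlapping copies, as many as in 0.271% of 21037 genes with an annotated 3′ UTR and in 0.116% of the 1727 genes whose 3′ UTR is within 20% of its length. The Csf3 window held 3 copies, a density that 2.56% of all genes and 1.26% of 2299 genes of like 3′ UTR length reach. The Csf1 window held 2, which 18.7% of all genes and 28.1% of 2801 genes of like length reach.

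RefSeq promoter sequence was at hand for 2 of the 4 genes, Csf1 and Csf2, and both are shown because both genes rose with TNF-α. The 250 bases before the RefSeq start are printed below on GRCm38.p6, with any match to the NF-κB consensus, the AP-1 motif TGANTCA or the C/EBP motif TTNNGNAA, on either strand, in capitals.
Csf1 chr3:107760470-107760719 minus strand: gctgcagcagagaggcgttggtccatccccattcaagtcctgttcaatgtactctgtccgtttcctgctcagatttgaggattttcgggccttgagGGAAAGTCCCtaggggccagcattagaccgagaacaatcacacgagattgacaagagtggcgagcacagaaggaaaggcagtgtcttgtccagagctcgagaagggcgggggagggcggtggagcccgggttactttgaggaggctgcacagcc
Csf2 chr11:54249900-54250149 minus strand: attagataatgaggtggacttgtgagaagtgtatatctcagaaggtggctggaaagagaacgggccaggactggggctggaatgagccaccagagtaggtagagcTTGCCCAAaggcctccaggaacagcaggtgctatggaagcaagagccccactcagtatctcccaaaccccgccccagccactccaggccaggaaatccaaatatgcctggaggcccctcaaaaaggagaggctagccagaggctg
The Csf1 window held 1 match to the NF-κB consensus, at position -154 from the start, which 3.9% of 32851 RefSeq promoters of that length hold at least once. It also held 2 GC boxes (GGGCGG, in 32.7% of promoters) and no match to TGANTCA (6.75%), TTNNGNAA (36.8%) or TATAAA (12.4%). The Csf2 window held 1 match to TTNNGNAA, at -145, and 1 GC box, and none to the NF-κB consensus, TGANTCA or TATAAA. The RefSeq start of Csf2 lies 232 bases upstream of the start of the gene in the GENCODE annotation, so the printed window ends that far upstream of the annotated gene. The bases between were not searched, so a motif missing from the window is not shown to be missing from the Csf2 promoter.

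The 4 genes were transcribed at very different levels. On the TPM scale, which divides by transcript length and so allows genes to be compared, Csf1 averaged 309 ± 95.4 (SD, n = 2) in unstimulated control KD, 216 ± 12 in unstimulated GSTM1 KD, 1185 ± 22.9 in stimulated control KD and 749 ± 25.2 in stimulated GSTM1 KD. Among the genes with a TPM above 0, Csf1 lay above 97.8% and 96.5% in unstimulated control KD and GSTM1 KD, and above 99.5% and 99.2% after TNF-α. In the same order of groups Il34 averaged 4.24 ± 0.721, 4.2 ± 0.488, 5.73 ± 0.856 and 10.4 ± 0.728 TPM, close to the middle of the genes with a TPM above 0 (49.5% to 58.8% lay below it). Csf2 averaged 0.845 ± 0.347 TPM in unstimulated control KD, was listed at 0 in both unstimulated GSTM1 KD libraries, and reached 12.2 ± 0.0849 TPM in control KD and 1.7 ± 0.396 TPM in GSTM1 KD after TNF-α. Csf3 stayed at or below 1.54 TPM in every library.

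Of the ligands of CSF1R, Csf1 was the more abundant mRNA in every library. The ratio of Csf1 to Il34 TPM was 101 and 50.9 in unstimulated control KD and 49.3 and 53.7 in unstimulated GSTM1 KD. After TNF-α it was 235 and 185 in control KD, and lower, at 70.3 and 74, in GSTM1 KD. Csf2 and Il34 changed places. The Csf2 TPM was 0.292 and 0.126 of the Il34 TPM in unstimulated control KD, 2.37 and 1.94 times it in control KD after TNF-α, and 0.182 and 0.144 of it in GSTM1 KD after TNF-α. Control KD after TNF-α was thus the group in which Csf2 stood second in order in both libraries. Csf3 was the lowest of the 4 in every library except the 2 unstimulated GSTM1 KD libraries, where Csf2 and Csf3 were both within 3 counts of 0 and are not separated.

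**Figure D1:**
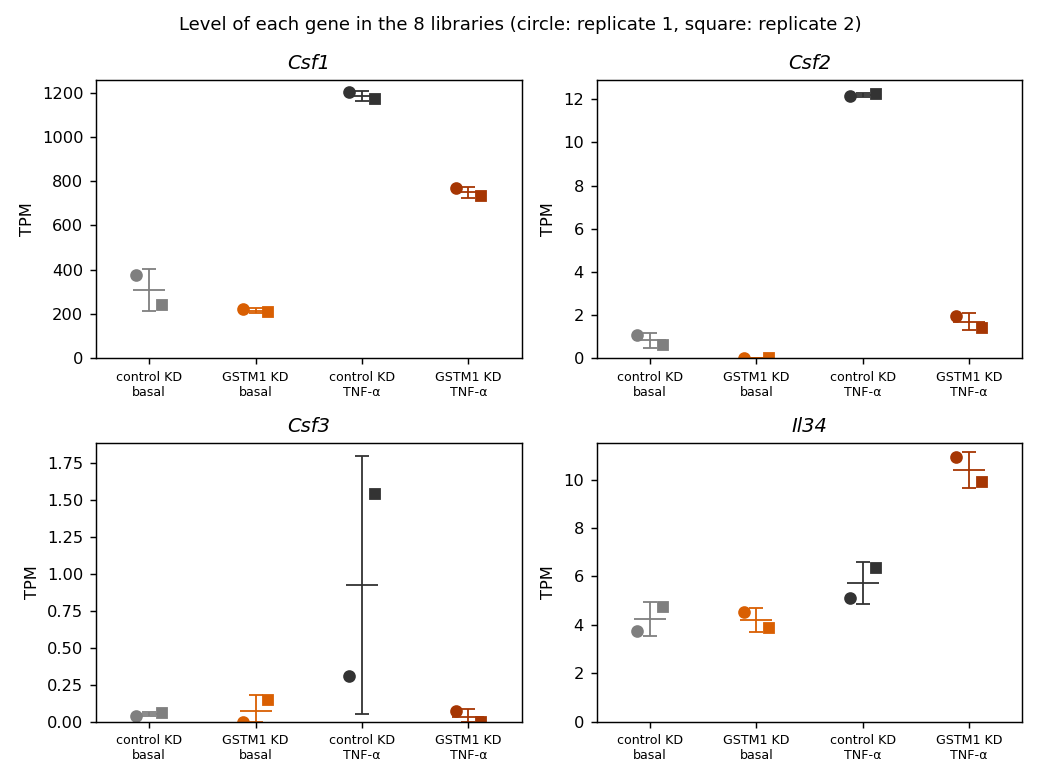
TPM of Csf1, Csf2, Csf3 and Il34 (vertical axes, from 0, a different scale in each panel) in the 8 libraries, by group. Circles are replicate 1, squares replicate 2, and the horizontal bars with caps are the mean and SD of the 2 libraries; Csf1 and Csf2 are highest in control KD after TNF-α, while Il34 is highest in GSTM1 KD after TNF-α.

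Csf1, whose product sustains microglia and macrophages through CSF1R, rose with TNF-α in both knockdowns and was lower in GSTM1 KD after stimulation. Unstimulated control KD had 27831 and 12717 counts, unstimulated GSTM1 KD 10449 and 8335, stimulated control KD 57833 and 41456, and stimulated GSTM1 KD 34717 and 25910. In TPM the same libraries read 377 and 242, 224 and 207, 1201 and 1169, and 767 and 731. All 4 stimulated libraries lay above all 4 unstimulated ones. In either state the control KD libraries lay above the GSTM1 KD ones, by 242 against 224 TPM at the closest. The share of all genes whose groups separate in this way was not counted, so nothing is read from it, here or for other genes and marker sums. The replicates differed most in unstimulated control KD, where replicate 1 was the higher.

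TNF-α raised Csf1 3.88-fold in control KD (log2 fold change 1.96, standard error 0.205) and 3.57-fold in GSTM1 KD (1.84, standard error 0.204). The adjusted p was 0.00517 and 0.00483 in edgeR's quasi-likelihood test across all genes with Benjamini-Hochberg adjustment, the source of each adjusted p that follows unless another tool is named. Of 15332 genes tested, 197 rose more than Csf1 in control KD and 280 in GSTM1 KD. The difference of the 2 responses was -0.12 on the log2 scale (standard error 0.28, adjusted p = 1), a difference whose sign turned (0.16) without control KD basal replicate 2. In the fit of the 4 control KD libraries alone the response was 1.97 with an adjusted p of 0.0787, and in GSTM1 KD it was 1.89 and 1.79 with an adjusted p of 0.0677 and 0.0811 without unstimulated replicate 1 or 2.

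Between the knockdowns, Csf1 was 1.64-fold lower in GSTM1 KD after TNF-α (log2 fold change -0.71, standard error 0.127, adjusted p = 0.0251). In unstimulated cells the value was -0.57 (standard error 0.229), with an adjusted p of 0.157 that did not pass the threshold of 0.05 (unadjusted p = 0.0495). With the replicate number as a block it was -0.53 and passed (adjusted p = 0.00861), as 4712 of 14899 genes then did. The labels do not say what that number marks, so a pairing is not established. The value after TNF-α was -0.76 and -0.66 without GSTM1 KD TNF-α replicate 1 or 2, and the adjusted p was then 0.15 and 0.24; without these libraries 0 of 14822 and 94 of 15253 genes passed in all. The unstimulated value was -0.87 with an adjusted p of 0.00105 without control KD replicate 2, where 5256 of 15352 genes passed, and -0.20 with an adjusted p of 0.305 without control KD replicate 1. The fibroblast and mural marker sum was lower in the GSTM1 KD libraries of both states, but the markers went both ways. Of the 6 tested, Col1a2 (-1.13 and -0.99) and Acta2 (-1.02 and -0.93) were lower in both states and Pdgfrb was higher after TNF-α (0.81, adjusted p = 0.0337), and the median log2 fold change was -0.18 and -0.05. The part of these cells in the Csf1 difference was not tested.

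Csf2, the gene of GM-CSF, had the largest fold changes of the 3 members that passed the filter, with TNF-α in control KD and between the stimulated knockdowns. It had 13 and 5 counts in unstimulated control KD, 0 and 0 in unstimulated GSTM1 KD, 94 and 68 in stimulated control KD, and 14 and 8 in stimulated GSTM1 KD. In TPM it read 1.09 and 0.6, 0 and 0, 12.1 and 12.3, and 1.98 and 1.42. The stimulated control KD libraries thus stood apart from all others. The mean TPM of the stimulated GSTM1 KD libraries was 2.01 times that of the unstimulated control KD libraries (1.56 to 2.83 when a library was left out).

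In control KD, TNF-α raised Csf2 13.8-fold (log2 fold change 3.79, standard error 0.403, adjusted p = 0.00866), and 50 of 15332 genes rose more. In the fit of the 4 control KD libraries alone the value was 3.8 and the adjusted p 0.055. After TNF-α, Csf2 was 7.33-fold lower in GSTM1 KD than in control KD (log2 fold change -2.87, standard error 0.346, adjusted p = 0.0129), and 15 of 14593 genes, 0.103%, had a more negative value. It was -3.14 and -2.66, with an adjusted p of 0.0731 and 0.0939, without GSTM1 KD TNF-α replicate 1 or 2. Markers of fibroblasts and mural cells summed to 1810 and 1621 CPM in these GSTM1 KD libraries against 3002 and 3201 CPM, with 2 of 6 lower, 1 higher and a median log2 fold change of -0.05, and their part in this difference was not tested.

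In GSTM1 KD, Csf2 was induced from 0 counts in both libraries, so its fold could be given only as a bound. With 3 counts allowed in each library at 0, Csf2 was at least 3.96-fold higher after TNF-α in GSTM1 KD, and at least 2.02-fold higher in control KD than in GSTM1 KD without stimulation. The bounds and all counting intervals given here cover counting error only. The induction in GSTM1 KD had an adjusted p of 0.0248, which ran from 0.0701 to 0.148 when each of the 4 libraries of that comparison was left out in turn. Csf2 passed the filter in that fit of 8 libraries with the stimulated control KD libraries among them, and did not pass it in the 4 GSTM1 KD libraries alone, so the call is not one that these 4 libraries give by themselves. In the basal comparison Csf2 did not pass the filter on low counts in the fit of the 4 libraries. It did in the fit of all 8, which holds the stimulated control KD libraries where it is high, and was called lower in GSTM1 KD there (adjusted p = 0.0184). Those libraries carried it past the filter, so nothing is read from that call. With unstimulated GSTM1 KD at 0, no size can be given for the difference of its induction between the knockdowns, and the fitted difference did not pass (adjusted p = 1). The sign of that fitted difference turned with the scale used. The antisense gene Gm12223, which overlaps Csf2 and could share its reads if the strand was not used in counting, had 0 to 7 counts per library.

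Csf3, the gene of G-CSF, was at the edge of detection. Unstimulated control KD had 1 and 1 counts of it, unstimulated GSTM1 KD 0 and 2, stimulated control KD 5 and 18, and stimulated GSTM1 KD 1 and 0. In TPM it read 0.04 and 0.06, 0 and 0.15, 0.31 and 1.54, and 0.07 and 0. Only the stimulated control KD libraries lay above 3 counts, and they differed from each other more than those of any other group.

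Pooled over its 2 libraries and set against their totals, Csf3 was 17.6 times as high in control KD after TNF-α as at the basal level (23 against 2 counts, exact 95% counting interval 4.35 to 154). It was 22.6 times as high in control KD as in GSTM1 KD after TNF-α (23 against 1 counts, interval 3.66 to 929). In GSTM1 KD the ratio of stimulated to basal was 0.554 (1 against 2 counts, interval 0.00939 to 10.6), and without stimulation the ratio of GSTM1 KD to control KD was 1.41 (2 against 2 counts, interval 0.102 to 19.4). These intervals compare libraries, not conditions, because they leave out the spread between cultures. Without control KD TNF-α replicate 1 or 2 the first ratio was 33 and 6.56, and the second 42.3 and 8.41. Csf3 did not pass the filter on low counts in the fits of all libraries of a comparison. It did in some fits with a library left out, and had an adjusted p of 0.0192 between the stimulated knockdowns without control KD TNF-α replicate 1. In that fit the remaining control KD library, with 18 counts, carried it past the filter, which it did not pass without that library, so nothing is read from the call. Without that filter edgeR gave an adjusted p of 0.00147 for GSTM1 KD against control KD after TNF-α and 0.00947 for TNF-α in control KD, where DESeq2 gave no adjusted p and 0.248.

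Il34, the other ligand of CSF1R, rose with TNF-α in GSTM1 KD. Its counts were 78 and 78 in unstimulated control KD, 51 and 54 in unstimulated GSTM1 KD, 90 and 94 in stimulated control KD, and 144 and 131 in stimulated GSTM1 KD. In TPM it read 3.73 and 4.75, 4.55 and 3.86, 5.12 and 6.33, and 10.9 and 9.88. Without stimulation the groups overlapped, and after TNF-α both GSTM1 KD libraries lay above both control KD libraries and above all unstimulated ones.

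TNF-α raised Il34 2.9-fold in GSTM1 KD (log2 fold change 1.53, standard error 0.283, adjusted p = 0.0384). In control KD the value was 0.86 (standard error 0.279, adjusted p = 0.228), which did not pass. With the replicate number as a block it was 0.85 and passed (adjusted p = 0.0474), as 988 of 15332 genes then did. The difference of the responses was 0.68 (standard error 0.395, adjusted p = 1), so a larger response in GSTM1 KD was not shown. It ran from 0.42 to 0.95 when each of the 8 libraries was left out, without control KD basal replicate 2 and control KD TNF-α replicate 2, and was 0.89 with effective lengths as offsets, with an adjusted p near 1 throughout. The response in GSTM1 KD ran from 1.39 to 1.69 when each of its 4 libraries was left out, and its adjusted p was then 0.315 without basal replicate 1, 0.19 without basal replicate 2, 0.174 without TNF-α replicate 1 and 0.205 without TNF-α replicate 2.

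GSTM1 KD against control KD gave -0.10 for Il34 in unstimulated cells (standard error 0.315, adjusted p = 0.854) and 0.56 after TNF-α (standard error 0.265, adjusted p = 0.192). The basal value turned positive, 0.14 and 0.05, without control KD replicate 2 or GSTM1 KD replicate 1. After TNF-α the value passed without control KD TNF-α replicate 2 (0.84, adjusted p = 0.0475) and was 0.30 (adjusted p = 0.449) without control KD TNF-α replicate 1. The effective length that RSEM estimated for Il34 moved between libraries, from 863 to 1486 bases, so the scale matters for this gene. With those lengths as offsets the value after TNF-α was 0.81 (adjusted p = 0.0891), and limma on log2(TPM + 0.1) gave 0.86 (adjusted p = 0.0585). The antisense genes Gm15894 and Gm15895 that overlap Il34 had 0 to 9 counts per library.

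Counted together, 0 of the 2 members tested passed at the basal level, where 10.2% of 14899 genes passed between the knockdowns, 4.60% higher and 5.62% lower in GSTM1 KD (1 of the 2, Csf1, had an unadjusted p under 0.05, and DESeq2 called 0). After TNF-α 2 of 3 members tested, Csf1 and Csf2, were lower in GSTM1 KD and 0 were higher, against 8.92% of 14593 genes lower and 7.26% higher (16.2% either way). Csf2 entered that count with most of its counts in control KD. With a minimum of 10 counts in every library it was not tested, and 1 member, Csf1, passed, where 2304 of 13509 genes did. TNF-α raised 2 of 3 members tested in control KD, against 2.10% of 15332 genes that rose and 0.528% that fell (2.63% in all). With that minimum it raised 1, Csf1, where 359 of 13313 genes passed. In the fit of the 4 control KD libraries it raised 0, where 72 of 14803 genes passed. In GSTM1 KD it raised 3 of 3, against 2.35% that rose and 0.294% that fell (2.65% in all). In the fit of the 4 GSTM1 KD libraries it raised only 2, Csf1 and Il34. Csf2 did not pass the filter there, so its call in the 3 of 3 is not one that these 4 libraries give by themselves. Of 14753 genes tested there, 691 passed the threshold. For the difference of the responses 0 of 3 members and 0.00% of 15332 genes passed in edgeR, although 295 genes had an unadjusted p under 0.05 and DESeq2 called 27. The median log2 fold change of the members tested was -0.33, -0.71, 1.96 and 1.84 in these 4 comparisons, where that of all genes was -0.002, -0.011, -0.021 and -0.007. The members called fell to 0 between the stimulated knockdowns without either GSTM1 KD TNF-α library. For TNF-α in GSTM1 KD they fell to 0 without either basal and to 1 without either TNF-α library of that knockdown. Calls over all genes fell as well in each of these fits, so the falls are not particular to the members. The comparisons share libraries and are not independent of each other. The shares of all genes given here are those to set beside the counts of pathway and neighbouring genes below. Between the knockdowns, 1 and 3 genes passed in all at the basal level without GSTM1 KD replicate 1 or 2, which bears on the calls of pathway and neighbouring genes given next.

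**Figure D2:**
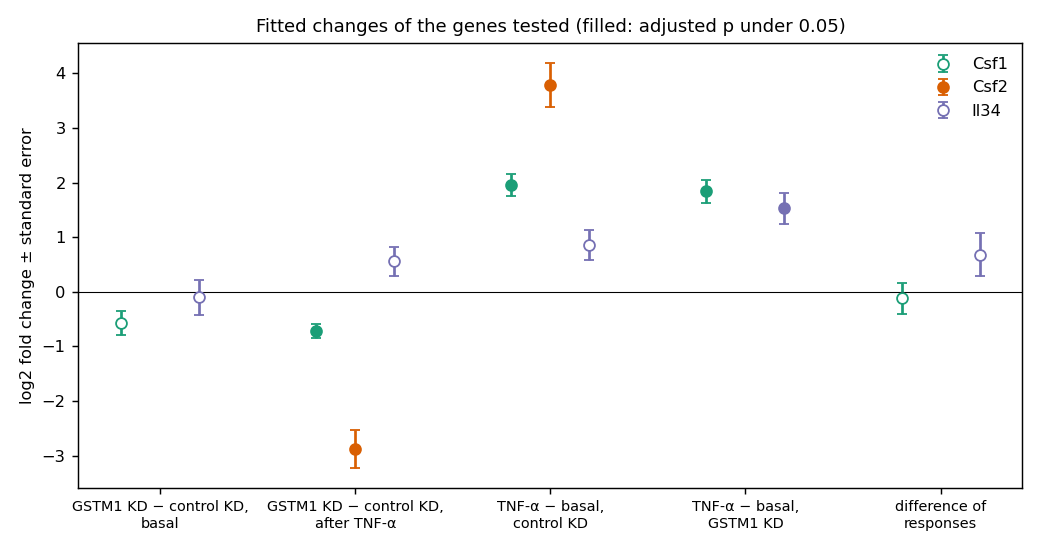
Log2 fold changes (vertical axis) with standard errors from edgeR for the members tested in the 5 comparisons (horizontal axis). Filled points have an adjusted p under 0.05; Csf2 is drawn only where its fold could be measured, at -2.87 for GSTM1 KD against control KD after TNF-α and 3.79 for TNF-α in control KD, and Csf3 was not tested.

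The receptors through which these factors act were low in the cultures, apart from the alternative receptors of interleukin-34. Csf1r, the receptor of both CSF1 and interleukin-34, had 55 and 8 counts in unstimulated control KD, 16 and 6 in unstimulated GSTM1 KD, 63 and 8 in stimulated control KD and 20 and 6 in stimulated GSTM1 KD, so the replicate 1 library was the higher in each group, as it was for the microglia and macrophage marker sum. Csf1r is itself 1 of the 12 markers in that sum. Csf2ra, the α chain for GM-CSF, averaged 2.2 to 2.98 TPM over the 4 groups. The β chain Csf2rb and the related gene Csf2rb2, listed with the receptors, had 0 to 23 and 0 to 8 counts per library, and Csf3r had 0 to 2 counts. Ptprz1, a receptor tyrosine phosphatase of astrocytes and their precursors to which interleukin-34 also binds, averaged 59.4 and 87.7 TPM in unstimulated control KD and GSTM1 KD, and 63.2 and 91.8 TPM in the stimulated ones. Sdc1, a cell-surface proteoglycan that binds interleukin-34, averaged 20.9 and 26.2 TPM without stimulation and 17.5 and 22.6 TPM with it.

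With 4 of the 7 receptors tested, 0 passed in edgeR in any comparison and DESeq2 called 0, while Sdc1 had an unadjusted p under 0.05 in edgeR in 2 of them, GSTM1 KD against control KD after TNF-α and TNF-α in control KD. The GSTM1 KD values were -0.94 in unstimulated and -1.36 in stimulated cells for Csf1r (adjusted p = 0.474 and 0.309), and -0.26 and -0.52 for Csf2ra (0.633 and 0.368). They were 0.58 and 0.52 for Ptprz1 (0.291 and 0.253) and 0.22 and 0.34 for Sdc1 (0.244 and 0.102). The standard errors of the Csf1r values were 0.822 and 0.872, so these libraries leave room for a change of either direction.

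Of 15 signal transducers that act below these receptors, 3 were lower and 0 higher in unstimulated GSTM1 KD, with a median log2 fold change of -0.12. They were the adaptors Gab2 (-2.04, adjusted p = 0.0132), Shc1 (-0.73, 0.0348) and the RAS exchange factor Sos1 (-0.45, 0.0452). After TNF-α 5 were lower and 0 higher, with a median of -0.39. Of all genes tested, 5.62% were lower without stimulation and 8.92% with it. The lower ones were Gab2 (-1.79), Shc1 (-0.81), Sos1 (-0.39), the adaptor Grb2 (-0.44) and Jak2, the kinase bound to the GM-CSF receptor (-0.44). Gab2 averaged 20.1 TPM in control KD and 4.895 TPM in GSTM1 KD without stimulation, and 19.3 and 5.965 TPM with it. TNF-α raised Jak2 (0.86), Tyk2 (1.05) and Pik3cd (1.45) in control KD. For GSTM1 KD the only transducer raised was Tyk2 (1.03). Of all genes tested with TNF-α, 2.10% rose and 0.528% fell for control KD, against 2.35% and 0.294% for GSTM1 KD. The cytokine lowered 0 of the 15 in either knockdown, which is near the shares that fell. DESeq2 also called Stat5a and Pik3r1 higher with TNF-α in control KD and Jak2 in GSTM1 KD, and did not call Sos1 lower after TNF-α. Of 9 feedback genes 8 were tested, and edgeR made 1 call among them over the 5 comparisons. Socs1, an inhibitor of JAK kinases, rose with TNF-α in GSTM1 KD (2.51, adjusted p = 0.0166). DESeq2 called it as well, and called Dusp6 lower with TNF-α in both knockdowns and, between the stimulated knockdowns, Socs1 higher and Spry2 lower in GSTM1 KD.

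Among 14 transcription factors known to act at CSF gene promoters, TNF-α raised 6 in each knockdown and lowered 0, and the median log2 fold change was 0.58 for control KD and 0.78 for GSTM1 KD. Of all genes tested, 2.10% rose and 0.528% fell in control KD, and 2.35% rose and 0.294% fell in GSTM1 KD. In control KD the NF-κB subunits rose by 2.35 (Relb), 2.09 (Nfkb2), 1.73 (Nfkb1) and 0.63 (Rela), Cebpb rose by 1.60 and Ets1 by 1.00. In GSTM1 KD the same genes rose by 2.75, 2.07, 1.29, 0.51, 1.20 and 0.96. Between the knockdowns Rela, Ets1 and Sp1 were lower in GSTM1 KD, by 0.61, 0.79 and 0.75 in unstimulated and 0.76, 0.85 and 0.73 in stimulated cells on the log2 scale. Ets2 was higher in GSTM1 KD in both states (1.03 and 0.86), and Jun was higher after TNF-α (0.43). Of all genes tested, 5.62% were lower and 4.60% higher in GSTM1 KD without stimulation, and 8.92% lower and 7.26% higher with it. DESeq2 also called Jun higher and Relb and Fosl1 lower without stimulation, and Rel higher and Nfkb1 and Fosl1 lower after it, and called Rel higher with TNF-α in GSTM1 KD. Rela averaged 65.6 TPM in unstimulated control KD and 44.8 TPM in unstimulated GSTM1 KD, and 100.1 and 62.1 TPM in the stimulated cells. The sum of the fibroblast and mural markers was also the lower one in GSTM1 KD, stimulated or not, with single markers lower and higher as given for Csf1, and its part was not tested.

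Of 7 genes whose proteins set the life of mRNAs with AU-rich elements, the ATTTA-binding decay factors Zfp36 and Zfp36l2 were lower in GSTM1 KD at the basal level (-0.80, adjusted p = 0.0296, and -0.76, adjusted p = 0.0348), and Zfp36l2 was also lower after TNF-α (-0.63, adjusted p = 0.0322). Zfp36 averaged 19.9 TPM in unstimulated control KD, 11.7 TPM in unstimulated GSTM1 KD, and 25.65 and 26.6 TPM in control KD and GSTM1 KD after stimulation. TNF-α raised Zfp36l1 in control KD (1.19, adjusted p = 0.0364) and Zfp36 in GSTM1 KD (1.20, adjusted p = 0.00421). DESeq2 also called Zc3h12a higher and Zfp36l2 lower with TNF-α in control KD, and Zfp36l1 higher in GSTM1 KD. For the difference of the responses 0 genes of these lists passed in edgeR and 0 in DESeq2, and Socs1 and Zfp36 had an unadjusted p under 0.05 in edgeR.

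**Figure D3:**
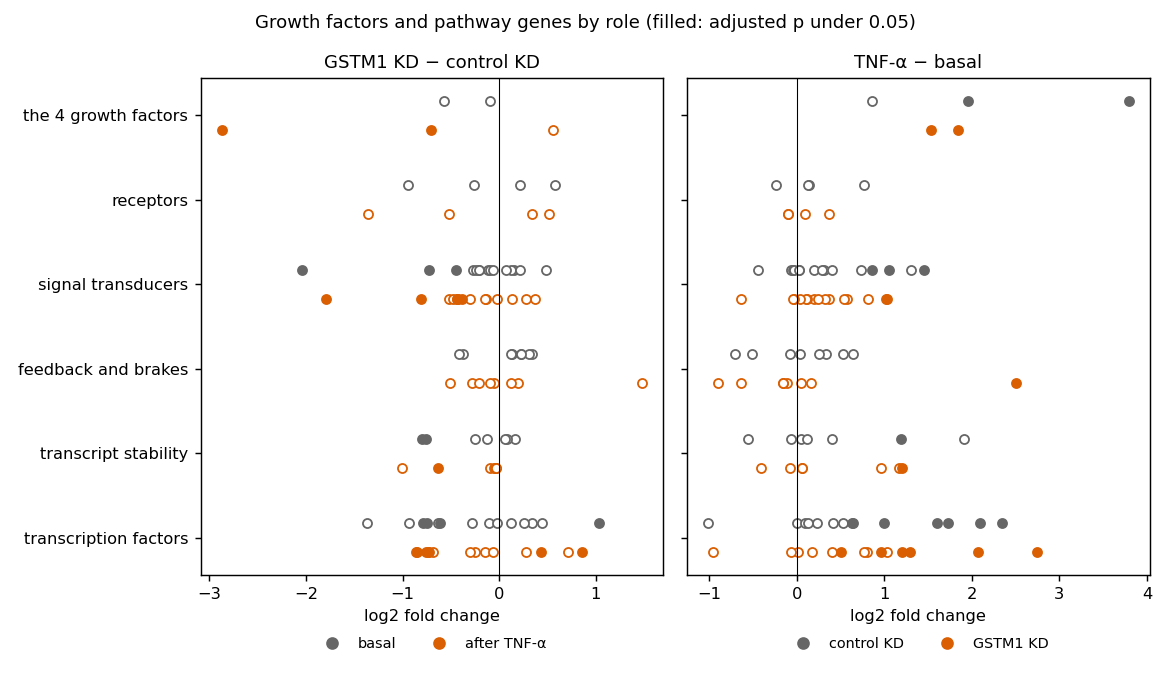
Log2 fold changes (horizontal axes) of the members and of the pathway genes tested, by role (rows), for GSTM1 KD against control KD (basal and stimulated) on the left and for TNF-α in control KD and GSTM1 KD on the right. Each point is 1 gene and filled points have an adjusted p under 0.05; Csf2 in GSTM1 KD is not drawn on the right because its basal counts were 0, and on the left its -2.87 after TNF-α lies below the values of the pathway genes drawn.

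Csf1 lies 251.8 kb from Gstm1 on the same chromosome, and Csf2 lies in the cytokine cluster that also holds Il3, so the genes within 300 kb of each member were read as well. Il3, 15.6 kb from Csf2, had at most 1 count in any library, Il13 had 0, Il4 at most 3 and Il5 at most 6, so Csf2 was the member of that cluster with a measurable response. Around Csf2, 7 of 9 protein-coding neighbours were tested. TNF-α raised Slc22a21 (1.00) and Pdlim4 (0.72) in control KD and Pdlim4 (0.78) in GSTM1 KD. After TNF-α Slc22a21, Pdlim4 and P4ha2 were lower in GSTM1 KD, by 0.74, 0.56 and 0.84 on the log2 scale, where Csf2 gave -2.87. Without stimulation 0 of the 7 passed between the knockdowns in edgeR, against 10.2% of all genes. Of these 7, 2 had an unadjusted p under 0.05 in edgeR and DESeq2 called 1, Pdlim4, lower.

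Around Csf1, 9 of 14 neighbours were tested. In GSTM1 KD Kcnc4 was higher in both states (2.65 and 2.67) and Gstm2 at the basal level (1.60, adjusted p = 0.0345), while Gstm1 itself was lower in both (-3.33 and -3.68). Ahcyl1, the nearest at 44.5 kb, gave 0.14 in both states (adjusted p = 0.49 and 0.491). For TNF-α 0 of the 9 passed in either knockdown in edgeR or DESeq2, with an unadjusted p under 0.05 for 1 of them, Kcnc4, in edgeR, where Csf1 rose by 1.96 and 1.84. Of all genes tested in edgeR, 2.63% passed in control KD and 2.65% in GSTM1 KD, so 0 of 9 is near that share. Around Csf3, 14 of 23 were tested, with Casc3 lower in GSTM1 KD in both states (-0.63 and -0.71) and Rara lower after TNF-α (-0.56). TNF-α lowered Rara in GSTM1 KD (-0.64, adjusted p = 0.0331). Around Il34, 12 of 13 were tested, with Vac14 lower in GSTM1 KD (-1.17 and -1.22) and Cog4 raised by TNF-α in GSTM1 KD (0.43). DESeq2 also called Gstm7 and Thra higher in GSTM1 KD in both states, and P4ha2 and Cog4 higher with TNF-α in control KD.

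**Figure D4:**
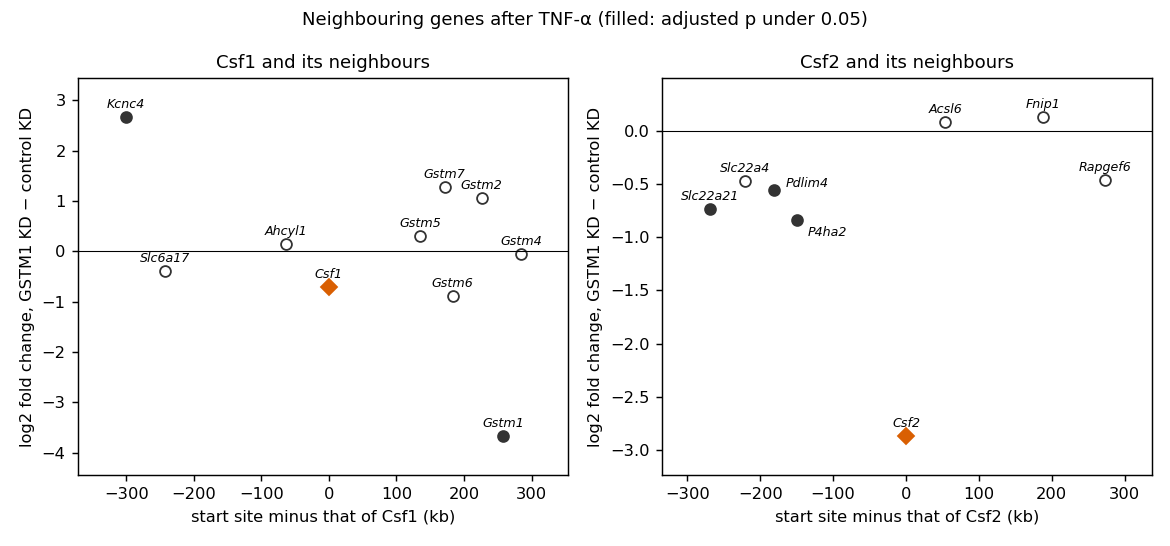
Log2 fold change of GSTM1 KD against control KD after TNF-α (vertical axes, of different scale) for Csf1 (left) and Csf2 (right), drawn as diamonds, and their tested protein-coding neighbours, against the distance between start sites in kb (horizontal axes). Filled symbols have an adjusted p under 0.05; Csf2, at -2.87, lies below its neighbours, the lowest of which is P4ha2 at -0.84.

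Likeness to each member was measured by Pearson's r of log2 CPM (prior count 2) over the 8 libraries, as a description of libraries that share groups, replicates and depth. The gene most like Csf1 was Cxcl16, which encodes a membrane-bound chemokine (r = 0.996), followed by Prrx1 (0.996), Rims3 (0.994), RP23-129D21.1 (0.993) and Rffl (0.992). Cxcl16 read 7.32 and 4.49 CPM in unstimulated control KD and 2.62 and 2.25 CPM in unstimulated GSTM1 KD, and 65.6 and 63.5 CPM against 31 and 23.9 CPM after TNF-α. Csf2 was most like Zeb2 (0.997), Rab8b (0.996), the neutrophil-attracting chemokine Cxcl2, Ccdc94 and Ptpn2 (0.990 each). Cxcl2 read 3.45 and 1.45 CPM against 0.386 and 0.651 CPM without stimulation, and 22.8 and 38.1 CPM against 4.2 and 3.85 CPM after TNF-α. Il34 was most like Ciita (0.998), the master regulator of MHC class II genes, then Trim56 (0.981), Gnl1 and Nckap5 (0.979 each) and Arl4a (0.976). Ciita read 0.367 and 0.821 CPM in unstimulated control KD and 0.3 and 0.551 CPM in unstimulated GSTM1 KD, and 1.29 and 3.79 CPM against 4.66 and 7.18 CPM after TNF-α, with both GSTM1 KD libraries above both control KD libraries.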

How the data were processed

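From total RNA the authors made strand-specific libraries, aligned their reads with STAR (version 2.5.4b) to GRCm38 and estimated gene levels with RSEM (version 1.3.0). The expected counts deposited are unnormalized RSEM estimates of fragments per gene and were rounded to whole numbers. The deposited TPM values are scaled by the authors' RSEM run to transcript length and a fixed total per library. The deposited effective lengths, in bases, were also used. The annotation release and the strand setting of the counting are not given in the sources used here. Loci came from GENCODE M21, in which 54079 of the 54146 gene identifiers were found when the version was ignored, and promoters from RefSeq (GRCm38.p6).

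Tests were made in edgeR (version 4.0.16, R version 4.3.3) by its quasi-likelihood method with TMM factors, after low genes were removed by filterByExpr, and p-values were adjusted over all genes tested by Benjamini and Hochberg at a threshold of 0.05. The knockdowns were compared on the 4 libraries of a state, and the TNF-α responses and their difference on all 8. A count of 3 or fewer was taken as the floor. Replicates are biological by the study's description. With 2 per group no exact test that reassigns libraries between 2 groups can pass 0.05. The procedure was run on simulated counts drawn with the same fixed spread for all genes and no replicate effect. That run does not show how it behaves on these libraries. Alternatives were DESeq2 (version 1.42.0), its size factors, library size alone, omission of the filter, a minimum of 10 counts per library, edgeR's newer method, limma (version 3.58.1) on log2(TPM + 0.1) and log2(TPM + 1), effective lengths as offsets, a replicate block, other sets of libraries and leaving out each library.

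The members, pathway lists and marker lists were chosen with earlier results of these data known. Named genes are the members, the receptors, pathway genes past the threshold, protein-coding neighbours within 300 kb past the threshold or nearest, and for each member that passed the filter the 5 genes with the highest r. Some genes that these rules would take in are not reported here and were left out of the counts, medians and plots of their lists.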

Additional observations from a re-analysis of the deposited data

How the results depend on the processing

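With 2 libraries per group, calls rested on few degrees of freedom and Csf2 in unstimulated GSTM1 KD, and Csf3 outside stimulated control KD, lay at the floor of these depths. Values are counted as kept where direction and side of the threshold held, counts of members where they stayed within 1.5 times, and ratios where they stayed within their error. Alternatives other than leaving out a library kept 187, lost 2 calls, gained 3 and moved 7. The Csf2 difference of responses is not among the values counted here or below, since no size can be given for it. Its fitted value was 2.90 in the main fit, 0.40 with limma on log2(TPM + 0.1) and -1.43 on log2(TPM + 1), so its sign turned with the scale. Counted as kept are 3 members in place of 2 without the filter (Csf3 added, after TNF-α and with TNF-α in control KD) and under the replicate block (Il34, TNF-α in control KD), and 2 in place of 3 for TNF-α in GSTM1 KD with a minimum of 10 counts or its 4 libraries alone. At the basal level no filter gave -0.60 for Csf1 and 2 members past the threshold, and the fit of all 8 libraries gave 1 (Csf2). Nothing is read from that Csf2 call, since the stimulated control KD libraries carried the gene past the filter. A minimum of 10 counts removed Csf2, leaving 1 member after TNF-α between the knockdowns and 1 for TNF-α in control KD. The fit of 4 control KD libraries gave 1.97 for Csf1, 3.80 for Csf2 and 0 members. By CPM, Il34 in control KD after TNF-α was 1.81 times its basal level, against 1.35 by TPM, and its mean effective length was 1386 bases against 1057. With those lengths as offsets its log2 response there was 0.46, against 0.86 without. The cause of the other changes was not tested.

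The replicate block gave -0.53 for Csf1 at the basal level (adjusted p = 0.00861, 1 member) and 0.85 for Il34 with TNF-α in control KD (adjusted p = 0.0474), and changed no other call of a member. Deviations of same-numbered libraries correlated at 0.292 to 0.786 over 13313 genes in the 6 pairs of groups, but 2 numbers do not establish a pairing. Under the block 4712 and 4303 genes passed between the knockdowns and 988 and 808 with TNF-α. Without the filter 3957, 4540, 1255 and 1050 passed.

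Leaving out each library in turn, where the lone library of a group is assumed to vary like the others, kept 97 values, lost 14 calls, gained 2, moved 7 and reversed 3 (Il34 at the basal level, 0.14 and 0.05, and the Csf1 difference of responses, 0.16). At the basal level Csf1 ran from -0.87 to -0.2, Il34 from -0.32 to 0.14 and the members past the threshold from 0 to 1. After TNF-α, GSTM1 KD against control KD ran from -0.76 to -0.66 for Csf1, -3.14 to -2.66 for Csf2, 0.3 to 0.84 for Il34 and 0 to 3 members, the third being Csf3 without control KD TNF-α replicate 1 (adjusted p = 0.0192, a gene that entered with the 18 counts of replicate 2) and Il34 without replicate 2 (0.0475). The pooled Csf3 ratios ran from 6.56 to 33 for TNF-α in control KD and from 8.41 to 42.3 for stimulated control KD over GSTM1 KD. TNF-α in GSTM1 KD ran from 1.78 to 1.89 for Csf1, 1.39 to 1.69 for Il34, 0.0701 to 0.148 for the adjusted p of Csf2 and 0 to 1 members. TNF-α in control KD ran from 1.67 to 2.33 for Csf1, 3.46 to 4.34 for Csf2 and 0.58 to 1.11 for Il34. The difference of responses ran from -0.49 to 0.16 for Csf1 and 0.42 to 0.95 for Il34.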
